A study of Mus musculus with 9 samples.

Results

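Native low-density lipoprotein (LDL) was compared with its buffer in cultured mouse valvular interstitial cells, the resident fibroblast-like cells of heart valves. The comparison takes 6 of the 9 RNA-seq samples of the series: 3 labelled LDL and 3 labelled Control. They were matched by the replicate number in their titles and described over 13495 of 51810 genes, those whose mean reached 1 TPM (a transcript level scaled to gene length and to the total of each library). The other 3 samples received oxidised LDL (oxLDL) and enter the fit to give an estimate of the spread between libraries. The cells were isolated from C57BL/6J mice, from both the aortic and the mitral valve, and the labels name no allele or transgene. Lipoprotein was given at 50 ug/mL during 24 h of culture (37 C, 5% CO2) in the LDL and oxLDL groups. Buffer alone was given in the Control group, although a label also calls it untreated. The medium of every group held 10% serum, 5 ug/mL insulin, 2 ng/mL epidermal growth factor and 0.5 ng/mL basic fibroblast growth factor. The serum carries lipoproteins of its own, so Control is not a lipoprotein-free state. Nothing in the labels says whether the 3 samples of a group are separate cultures or separate animals, so the spread behind each p-value is that of these samples alone and could be technical.

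Cells take LDL particles up by receptor-mediated endocytosis, and cholesterol is released from them in lysosomes. When membranes of the endoplasmic reticulum hold enough sterol, INSIG proteins keep the SREBP transcription factors from reaching the Golgi, and genes for sterol synthesis and uptake are transcribed less. Fatty acids and their derivatives are ligands of the PPAR nuclear receptors, whose known targets burn or store fat, and the factor NRF2 switches on redox and detoxification genes when its repressor KEAP1 is modified. In valves, interstitial cells maintain the matrix and can take on contractile or bone-like programmes, which are studied in calcific valve disease together with lipoproteins.

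The cells carried the markers of their label. The 14 valve fibroblast markers, among them vimentin, collagens and PDGF receptors, were all above the level filter and summed to between 11432 and 12899 TPM in the 6 libraries compared. All 14 macrophage and leukocyte markers and all 10 endothelial markers also passed this filter, so passing it does not tell these cell types apart. The 14 macrophage and leukocyte markers summed to 532, 267 and 517 TPM in Control libraries 1, 2 and 3 and to 809, 265 and 664 TPM in LDL libraries 1, 2 and 3. The 10 endothelial markers summed to 480, 223 and 343 TPM in Control and to 509, 224 and 250 TPM in LDL. Both sets were low in the libraries numbered 2, whichever the treatment. Of 8 cardiomyocyte markers 1 passed the filter, and the 6 erythroid markers summed to at most 0.57 TPM in the 6 libraries. In RNA from whole cultures, fewer cells of a type and less RNA per cell cannot be told apart. TPM have the same total in every library by construction, and the libraries listed between 20985 and 21433 genes above 0. TPM keep no read depth, so the depth behind each value is unknown.

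In the fit blocked on replicate number, LDL gave 115 calls (0.852% of the genes tested), of which 59 were higher (0.437%) and 56 lower (0.415%), at an adjusted p under 0.05 (limma on log2(TPM + 1), Benjamini-Hochberg over all 13495 genes, two-sided). Without the block the counts were 24 higher (0.178%) and 21 lower (0.156%), or 45 in all (0.333%), and 44 of these were also called with it. An unadjusted p under 0.05 was found for 13.1% of the genes tested. The changes were modest in size, with a median of 0.69 on the log2 scale among the genes called higher and 0.67 among those called lower. In absolute terms 14 of the higher and 13 of the lower genes differed by at least 1 log2 unit. The LDL and Control libraries did not overlap for 53 of the 59 higher and 51 of the 56 lower genes, against 5.61% and 5.06% of all genes tested. The genes were called on these same libraries, so this separation is largely built in and lends the calls no further support. Leaving out Control 1, 2 or 3 left 13, 21 and 22 higher and 17, 35 and 34 lower genes, and leaving out LDL 1, 2 or 3 left 35, 8 and 16 higher and 23, 20 and 19 lower genes. Leaving out oxLDL 1, 2 or 3 gave 28, 56 and 101 higher and 22, 46 and 80 lower genes.

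**Figure D1:**
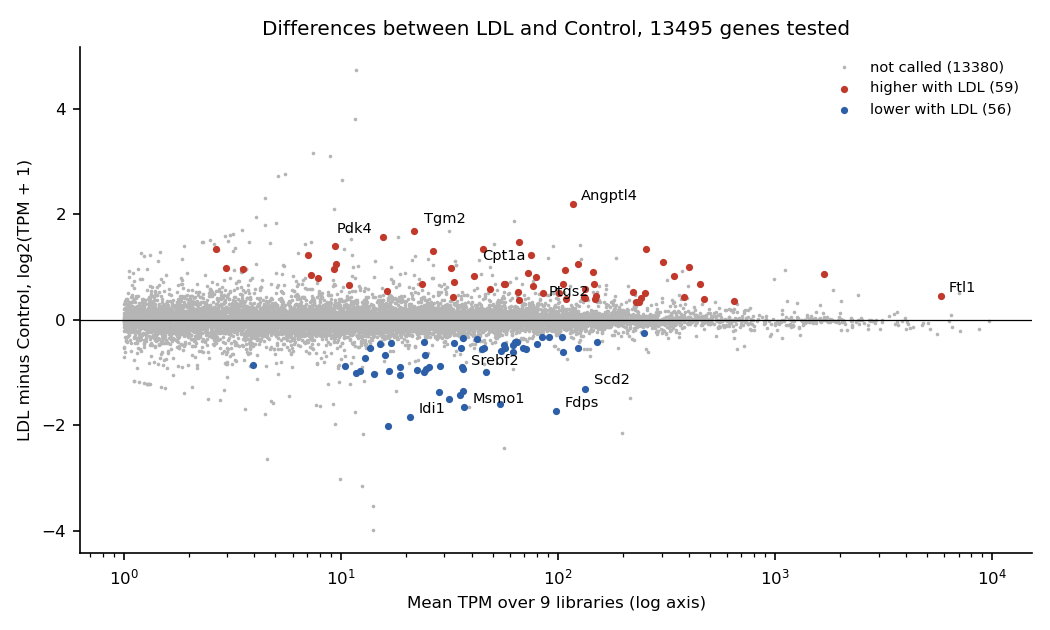
Difference between LDL and Control (log2 scale, vertical axis) against the mean level over the 9 libraries (TPM, logarithmic axis) for the 13495 genes tested, with the genes called higher and lower in colour. The 115 called genes lie on both sides of 0, with sterol genes such as Idi1 and Fdps at the bottom and Angptl4 at the top.

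The clearest change was a fall of the cholesterol synthesis pathway. Of its 20 tested genes, 18 fell, against 0.415% of all genes, and none rose. The median difference was -1.0 on the log2 scale against 0.00 over all genes (-0.0018). The summed level of the 20 genes was 1002, 759 and 649 TPM in Control libraries 1, 2 and 3 and 362, 329 and 306 TPM in LDL libraries 1, 2 and 3. All 3 LDL sums lay below all 3 Control sums, and the Control libraries were spread more widely than the LDL libraries. The fall came to 8 of 8 genes of the mevalonate arm, 7 of 8 from squalene to sterol demethylation, and 3 of 4 of the final steps.

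The mevalonate arm builds the isoprenoid units from acetyl-CoA. Hmgcs1, the synthase that makes HMG-CoA, was at 72.2, 53.5 and 48.7 TPM in Control 1, 2 and 3 and at 23.8, 21.4 and 20.3 TPM in LDL 1, 2 and 3. It fell by 1.36 on the log2 scale (SE 0.08, limma adjusted p = 0.00053). Idi1, the isomerase that balances the isoprenoid building blocks, was at 47.8, 34.7 and 26.8 TPM in Control and at 10.6, 8.49 and 8.67 TPM in LDL. With a difference of -1.84 (SE 0.11, limma adjusted p = 0.000604), every LDL library lay well below every Control library. Fdps, which makes farnesyl diphosphate, the branch point to sterols and to protein prenylation, was at 215, 156 and 119.8 TPM in Control and at 57.0, 45.4 and 41.3 TPM in LDL. Its difference was -1.72 (SE 0.08, limma adjusted p = 0.000244). The kinases and the decarboxylase between these enzymes fell less: -0.93 for Mvk, -0.96 for Pmvk and -0.97 for Mvd on the log2 scale. Acat2, a thiolase at the entry of the arm, fell by 0.89.

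The sequences before the start sites of 3 of these sterol genes are shown because SREBP proteins act at promoters, commonly beside NF-Y, which binds CCAAT. Each window runs from 250 bases before to 50 bases after the RefSeq start (GRCm38.p6), is written 5′ to 3′ on the strand of the gene, and lies on the plus strand at chr13:119690101-119690400 for Hmgcs1, chr13:8885356-8885655 for Idi1 and chr5:28071162-28071461 for Insig1. Capitals mark TCACNCCAC, the letters of a sterol regulatory element, and CCAAT, which reads ATTGG on the other strand.
Hmgcs1: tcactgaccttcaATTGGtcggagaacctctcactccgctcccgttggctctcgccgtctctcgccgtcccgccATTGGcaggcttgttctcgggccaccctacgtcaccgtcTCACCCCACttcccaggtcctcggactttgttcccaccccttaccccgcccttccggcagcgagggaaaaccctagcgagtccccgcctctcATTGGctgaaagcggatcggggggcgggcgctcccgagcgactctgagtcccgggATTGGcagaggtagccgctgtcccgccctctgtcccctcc
Idi1: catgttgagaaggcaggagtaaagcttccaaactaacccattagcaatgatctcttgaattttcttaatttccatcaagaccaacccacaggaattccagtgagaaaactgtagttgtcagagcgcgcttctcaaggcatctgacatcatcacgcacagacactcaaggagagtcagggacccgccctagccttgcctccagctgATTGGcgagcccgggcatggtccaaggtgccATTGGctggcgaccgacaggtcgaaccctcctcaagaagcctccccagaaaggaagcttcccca
Insig1: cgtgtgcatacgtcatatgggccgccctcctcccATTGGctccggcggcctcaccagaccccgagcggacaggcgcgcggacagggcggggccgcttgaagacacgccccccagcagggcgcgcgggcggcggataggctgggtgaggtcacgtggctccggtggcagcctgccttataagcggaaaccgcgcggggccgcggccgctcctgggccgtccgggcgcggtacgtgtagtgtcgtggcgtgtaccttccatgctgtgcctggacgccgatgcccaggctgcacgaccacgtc
The Hmgcs1 window holds TCACCCCAC, beginning 137 bases before the start, and 4 copies of ATTGG, while Idi1 holds 2 copies and Insig1 holds 1. Searched on both strands, CCAAT was found in the windows of 14 of the 15 cholesterol synthesis genes that have one, against 43.3% of the 9673 tested genes with a window. TCACNCCAC was found in 1 of the 15, against 1.4% of all. The 2 motifs share no position in the printed windows. These matches describe letters and are not evidence of binding.

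From squalene onwards the pathway closes and trims the sterol rings. Sqle, the squalene epoxidase and a control point of the pathway, was at 52.7, 40.8 and 37.7 TPM in Control and at 16.8, 16.7 and 14.9 TPM in LDL, a difference of -1.37 (SE 0.08, limma adjusted p = 0.0006). Cyp51, the lanosterol demethylase, was at 65.6, 48.6 and 38.9 TPM in Control and at 19.7, 16.5 and 14.7 TPM in LDL. Msmo1, which oxidises methyl groups of the sterol ring, was at 79.7, 57.6 and 51.4 TPM in Control and at 24.3, 16.4 and 17.1 TPM in LDL. The 3 LDL values of each enzyme lay below all Control values, with differences of -1.51 for Cyp51 and -1.66 for Msmo1 (limma adjusted p = 0.000343 and 0.000173). Fdft1, which makes squalene, Lss, which cyclises it, and Nsdhl and Hsd17b7 of the demethylation complex fell by 1.0, 1.03, 1.04 and 0.97. The reductase Dhcr7 fell by 1.0 and the desaturase Sc5d by 0.89, both in the final steps. The pair that did not pass, named after their values were seen, were Tm7sf2 at -0.91 (limma adjusted p = 0.167) and Ebp at -0.05 (limma adjusted p = 0.859).

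The sterol calls varied in how much they depended on the block and on single libraries. Without the block 11 of the 20 genes were called lower. With the block the count was 11 without Control 1 and 10 without LDL 2, and between 12 and 18 without any other library. Fdps, Msmo1, Cyp51, Sqle and Hmgcs1 stayed under the threshold without any 1 of the 9 libraries and without all 3 libraries of any 1 number. Their adjusted p without the block ranged from 0.0103 for Hmgcs1 to 0.0265 for Cyp51.

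Genes that control sterol supply fell as well, but not the whole control machinery. Of 13 tested genes of sterol sensing and uptake, 5 fell, against 0.415% of all genes, and none rose. Srebf2, which encodes the SREBP factor that drives sterol genes, was at 54.5, 45.9 and 42.8 TPM in Control and at 25.8, 25.1 and 22.2 TPM in LDL. The groups did not overlap, and the difference was -0.94 (SE 0.06, limma adjusted p = 0.000849 with the block and 0.0171 without). Insig1, the sterol-regulated anchor that retains SREBP, was at 78.1, 50.2 and 43.1 TPM in Control and at 21.9, 19.8 and 18.4 TPM in LDL, a difference of -1.43 (limma adjusted p = 0.00402). Stard4, a carrier of cholesterol between membranes, was at 29.0, 22.7 and 25 TPM in Control and at 12.5, 13.8 and 13.2 TPM in LDL. It fell by 0.90 (limma adjusted p = 0.0144). Srebf1, whose products mainly drive fatty acid genes, fell by 0.48 with the block (limma adjusted p = 0.0345) and was not called without it (0.0707). Scap, the escort of SREBP, was at 0.17 and Insig2 at 0.15, neither past the threshold and both named after their values were seen. The count of 5 became 3 without Control 1, LDL 1, LDL 2, LDL 3 or oxLDL 1.

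**Figure D2:**
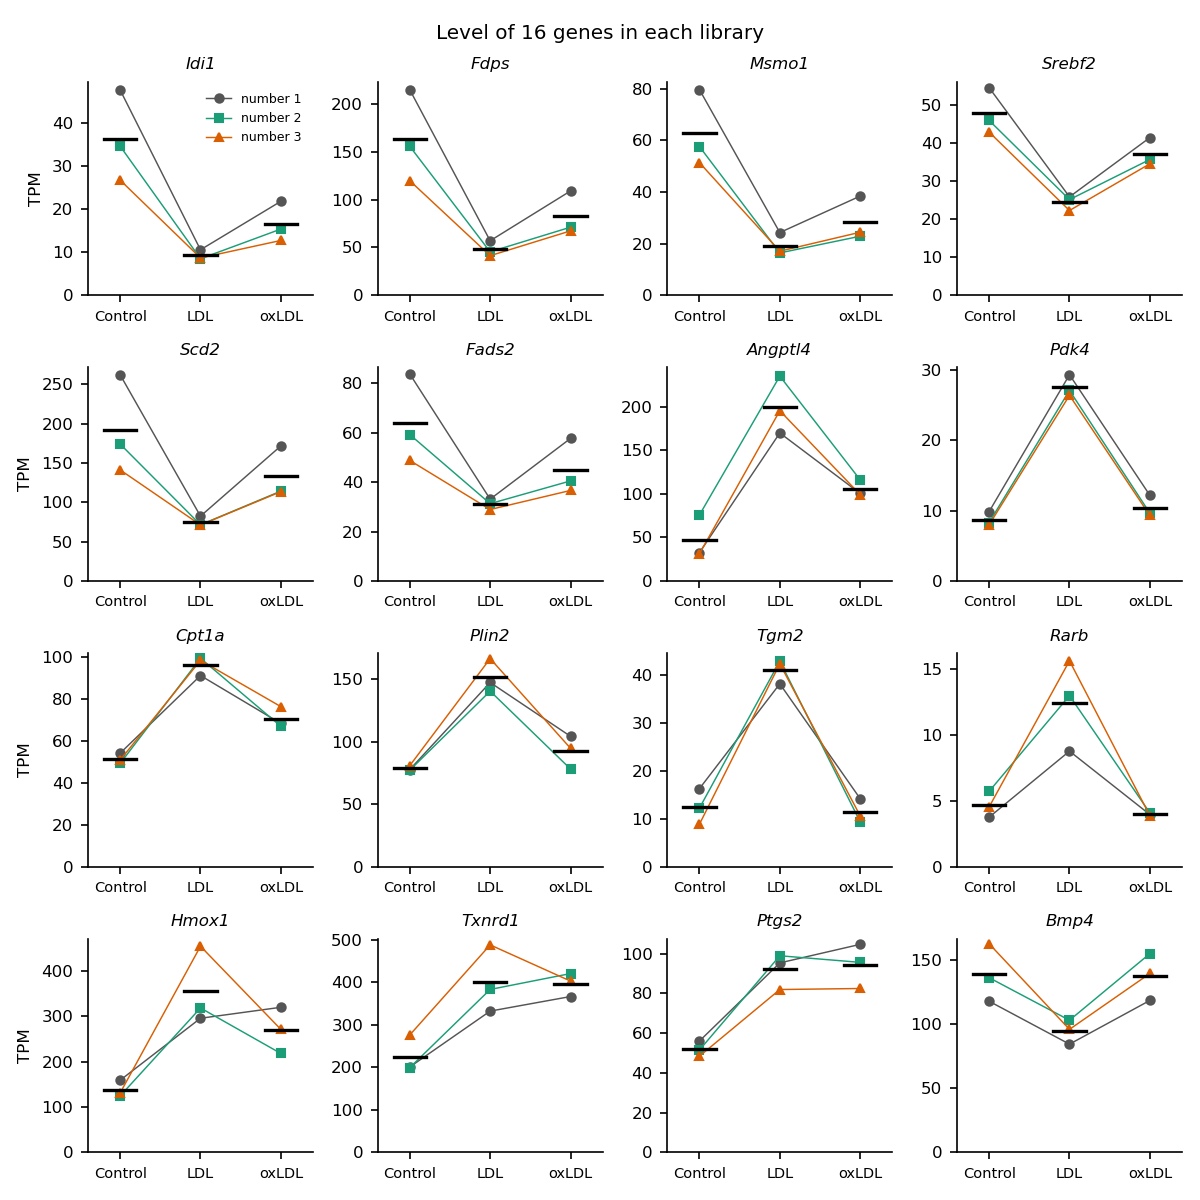
Level of 16 genes (TPM, linear axes starting at 0) in each Control, LDL and oxLDL library, with lines joining libraries of the same number and black bars at the group means. The sterol genes and desaturases drop from Control to LDL in every numbered set, whereas Angptl4, Pdk4, Cpt1a and Plin2 climb.

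Fatty acid desaturation and elongation genes were lower with LDL. Of the 15 tested genes of fatty acid synthesis and desaturation, 5 fell, against 0.415% of all genes, and none rose. All 9 elongation and desaturation members were lower in all 3 numbered pairs, against 17.5% of all genes. Scd2, a desaturase that makes monounsaturated fatty acids, was at 262, 174 and 141 TPM in Control and at 82.3, 71.4 and 71.1 TPM in LDL. Control 1 was the highest library, and the difference was -1.3 (SE 0.12, limma adjusted p = 0.00449 with the block and 0.0721 without). Fads2 and Fads1, which desaturate polyunsaturated fatty acids, fell by 0.98 and 0.61, and Elovl6, which elongates palmitate, fell by 0.88. Fasn, the fatty acid synthase, was at 127, 143 and 127 TPM in Control and at 72.4, 96.5 and 92.3 TPM in LDL, a fall of 0.61 (limma adjusted p = 0.0195 with the block and 0.11 without). Only Elovl6 of these 5 passed without the block (limma adjusted p = 0.0342). The count of 5 became 1 without Control 1 or LDL 2, 2 without Control 2, LDL 3 or oxLDL 1, and 3 without LDL 1.

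Several lipid genes beside these pathways fell too, of which Mid1ip1 and Tmem97 were chosen after their values were seen. Mid1ip1, an activator of acetyl-CoA carboxylase, was at 71.4, 65.6 and 66.6 TPM in Control and at 43.1, 45.0 and 45.1 TPM in LDL, with a difference of -0.60 (SE 0.05, limma adjusted p = 0.00462). Both triplets were tight and far apart, and the call held without the block (0.0103). Pcyt2, the rate-setting enzyme of phosphatidylethanolamine synthesis by the CDP-ethanolamine route, was at 40.7, 38.5 and 35.6 TPM in Control and at 19.5, 19.4 and 22.7 TPM in LDL (difference -0.87, limma adjusted p = 0.0142). Acsl3, which activates fatty acids at the endoplasmic reticulum and lipid droplets, fell by 0.67 (limma adjusted p = 0.0239). It was the 1 called gene of 15 in the list of acyl-CoA activation and phospholipid synthesis, against 0.415% of all genes. Tmem97, an endoplasmic reticulum protein regulated with sterol genes, fell by 0.53 (limma adjusted p = 0.0163). The calls of all 4 depended on single libraries: the limma adjusted p was 0.0513 for Mid1ip1 without Control 1, 0.106 for Pcyt2 and 0.128 for Tmem97 without LDL 2, and 0.201 for Acsl3 without LDL 3.

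Some genes that burn and handle fatty acids rose, while most members of these lists did not pass the test. Angptl4, a secreted inhibitor of lipoprotein lipase and a known PPAR target, was at 32.5, 75.7 and 31.2 TPM in Control and at 169.9, 235 and 195 TPM in LDL. Control 2 was above the other Control libraries, yet all LDL libraries were higher still, and the difference was 2.19 (SE 0.20, limma adjusted p = 0.00462). Without Control 1 its adjusted p was 0.0518. Plin2, which coats lipid droplets, was at 77.7, 77.1 and 80.8 TPM in Control and at 147, 140.4 and 166 TPM in LDL. Lipe, the hormone-sensitive lipase, was low in both groups, at 6.04, 8.13 and 4.99 TPM in Control and at 14.2, 14.8 and 13.6 TPM in LDL. These were the 3 of 16 tested genes of lipid droplets and lipolysis that rose, against 0.437% of all genes, and none fell. The differences were 0.93 for Plin2 and 1.06 for Lipe (limma adjusted p = 0.00449 and 0.0163).

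Pdk4 was the 1 gene called higher that kept its call in all 9 fits without 1 library and in all 3 fits without 1 number. It encodes the kinase that switches off pyruvate dehydrogenase and so holds back the burning of glucose. It was at 9.86, 8.31 and 7.99 TPM in Control and at 29.3, 27.1 and 26.4 TPM in LDL, and it lies at chr6:5483351-5496309 on the minus strand (GRCm38). Both triplets were tight and did not overlap, and the difference was 1.56 (SE 0.07, limma adjusted p = 0.000173). Ucp2, a mitochondrial carrier protein, was at 16.2, 16.6 and 15.9 TPM in Control and at 44.5, 36.5 and 44.0 TPM in LDL (difference 1.3, limma adjusted p = 0.0142). In the list of pyruvate entry and fuel switching, 3 of 16 tested genes rose, against 0.437% of all genes, and none fell.

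In mitochondrial fatty acid oxidation 3 of 22 tested genes rose, against 0.437% of all genes, and none fell. Cpt1a, the gate for long-chain fatty acids into mitochondria, was at 54.2, 49.3 and 50.9 TPM in Control and at 91.2, 99.5 and 98.5 TPM in LDL. The triplets did not overlap (difference 0.89, SE 0.07, limma adjusted p = 0.00228 with the block and 0.00394 without). Acaa2, the thiolase of the last step of the cycle, was at 46.1, 47.4 and 43.5 TPM in Control and at 70.6, 77.5 and 74.0 TPM in LDL. Acadl, the long-chain acyl-CoA dehydrogenase, was at 99.5, 118 and 113 TPM in Control and at 158, 179.8 and 157 TPM in LDL. They rose by 0.69 and 0.58 on the log2 scale (limma adjusted p = 0.00416 and 0.00449). Of the 22 genes 19 had a higher mean with LDL and 13 were higher in all 3 pairs, against 49.4% and 17.9% of all genes. The list median was 0.16. Among 16 peroxisomal genes 1 rose, against 0.437% of all genes. It was Ech1, a dienoyl-CoA isomerase, at 68.7, 58.7 and 58.4 TPM in Control and 102, 96.7 and 92.7 TPM in LDL. Its difference was 0.65 (limma adjusted p = 0.00193).

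The receptors and fatty acid carriers of the PPAR list were not called. None of 8 tested genes of the PPAR list passed (limma), and 3 had an unadjusted p under 0.05, against 13.1% of all genes. Cd36, which imports fatty acids and binds oxidised lipoproteins, was at 13.1, 9.95 and 31.8 TPM in Control and at 31.5, 21.6 and 57.9 TPM in LDL. It was higher in all 3 pairs, the groups overlapped, and its difference of 1.03 had a limma adjusted p of 0.0758. Pparg was at 1.85, 0.96 and 2.92 TPM in Control and at 2.64, 2.21 and 4.63 TPM in LDL (difference 0.53, limma adjusted p = 0.374). The cholesterol exporter Abca1, a target of the sterol-activated LXR receptors, had a difference of 0.28 (limma adjusted p = 0.203). None of the 9 tested genes of LXR and efflux was called (2 had an unadjusted p under 0.05, against 13.1% of all genes). Olr1, a receptor for oxidised LDL, was at 7.19, 7.10 and 2.72 TPM in Control and at 16.8, 21 and 19.6 TPM in LDL. Its groups did not overlap, but its difference of 1.68 had a limma adjusted p of 0.0919.

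A broad set of redox genes that NRF2 is known to control was higher. Of 29 tested targets, 12 rose, against 0.437% of all genes, and none fell. All 29 had a higher mean with LDL and 27 were higher in all 3 pairs, against 49.4% and 17.9% of all genes, and the list median was 0.52 (0.42, 0.60 and 0.74 in pairs 1, 2 and 3). The calls rest on the pairing and on the whole set of libraries. Without the block 3 of the 29 were called (Hmox1, Nqo1 and Blvrb). With the block the count was 1 without Control 1, 2 without Control 2, 2 without Control 3, 4 without LDL 1, 0 without LDL 2, 2 without LDL 3 and 5 without oxLDL 1, with 17 without oxLDL 3.

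Haem and iron genes stood among them. Hmox1, the haem oxygenase that breaks haem down to biliverdin, was at 159, 124 and 131 TPM in Control and at 296, 318 and 455 TPM in LDL. LDL 3 was the highest library, and all LDL values exceeded all Control values (difference 1.34, SE 0.16, limma adjusted p = 0.0168 with the block and 0.0264 without). Blvrb, a biliverdin reductase, rose by 0.90, and Ftl1, the ferritin light chain that stores iron, rose by 0.44 with 4782, 4408 and 4920.1 TPM in Control and 6589, 5912 and 6716 TPM in LDL. In the separate list of haem synthesis and iron handling, 2 of 15 rose, against 0.437% of all genes, and none fell. Alas1, the rate-limiting enzyme of haem synthesis, was at 103, 97.7 and 117 TPM in Control and at 169, 152 and 186 TPM in LDL (difference 0.67, limma adjusted p = 0.00315 with the block and 0.0245 without). Slc40a1, the iron exporter ferroportin, was at 2.25, 1.12 and 1.88 TPM in Control and at 4.72, 2.92 and 5.87 TPM in LDL (difference 0.99, limma adjusted p = 0.0296 with the block and 0.407 without). Ferroportin is also abundant in macrophages, whose 14 markers all had a higher mean with LDL with none called (median 0.30, 1 at an unadjusted p under 0.05), and their part in its difference was not tested.

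Of 7 tested thiol and quinone genes 3 rose, against 0.437% of all genes. The differences of all 7 ran from 0.02 to 1.06. Txnrd1, the cytosolic thioredoxin reductase, was at 201, 199 and 276 TPM in Control and at 332, 383 and 488 TPM in LDL, a difference of 0.83 (SE 0.10, limma adjusted p = 0.0163). Nqo1, a quinone reductase, was at 207, 215 and 306 TPM in Control and at 427, 458 and 555 TPM in LDL (difference 1.0, limma adjusted p = 0.0163). Library 3 was the highest in Control and in LDL for both genes. Srxn1, which repairs oxidised peroxiredoxins, was at 66.9, 58.0 and 93.5 TPM in Control and at 112, 136 and 221 TPM in LDL (difference 1.06, limma adjusted p = 0.0346). Txnrd1 and Srxn1 were not called without the block (0.11 and 0.211).

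Glutathione genes rose with a wider spread. Gclc and Gclm encode the catalytic and the modifier subunit of the enzyme that limits glutathione synthesis. Gclc was at 26.7, 24.8 and 35.7 TPM in Control and at 40.4, 51.7 and 65.8 TPM in LDL, and Gclm at 154, 143 and 229 and 247, 342 and 588 TPM. Their differences were 0.83 (limma adjusted p = 0.014) and 1.10 (limma adjusted p = 0.0495, at the edge of the threshold). Gsta3, a glutathione transferase, rose by 1.22 with 65.6, 80.4 and 156 TPM in LDL against 37.2, 31.7 and 52.4 TPM in Control (limma adjusted p = 0.0338). G6pdx and Pgd, which make NADPH in the pentose phosphate pathway, rose by 0.41 and 0.34, and Taldo1, the transaldolase of that pathway, by 0.67. Without the block Gclc, Gclm, Gsta3, G6pdx, Pgd and Taldo1 were not called (limma adjusted p = 0.222, 0.311, 0.243, 0.615, 0.104 and 0.0774). The G6pdx groups overlapped, and G6pdx and Pgd each kept their call in only 1 of the 9 fits without 1 library. Nfe2l2, the gene of NRF2, was at 0.25 (limma adjusted p = 0.054). None of the 8 tested genes of NRF2 and its repressors was called (2 had an unadjusted p under 0.05, against 13.1% of all genes).

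The promoter window of Txnrd1 that holds the letters of an antioxidant response element is shown with those letters, TGACNNNGC, in capitals. It lies at chr10:82858956-82859255 on the plus strand (GRCm38.p6, RefSeq) and is 1 of 3 windows of the gene.
Txnrd1: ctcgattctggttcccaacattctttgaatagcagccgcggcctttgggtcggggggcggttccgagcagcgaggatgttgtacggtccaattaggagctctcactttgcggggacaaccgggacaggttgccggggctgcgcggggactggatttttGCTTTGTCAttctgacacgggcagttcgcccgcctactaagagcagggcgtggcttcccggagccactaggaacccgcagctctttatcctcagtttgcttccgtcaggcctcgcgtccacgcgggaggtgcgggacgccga
The match reads GCTTTGTCA on the printed strand and begins 92 bases before the start. The same letters, on either strand, were found for 10 of the 23 tested NRF2 targets with a window and for 6 of the 10 called ones. The share was 16.93% of all tested genes with a window. It was 17.78% of all genes called higher and 18.42% of those called lower, so the letters were not more frequent among the called genes as a whole. The PPAR-type direct repeat, DR1, was found in none of the windows of the 83 called genes that have one and in those of 0.24% of all, which says only that these letters are not in the windows searched.

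**Figure D3:**
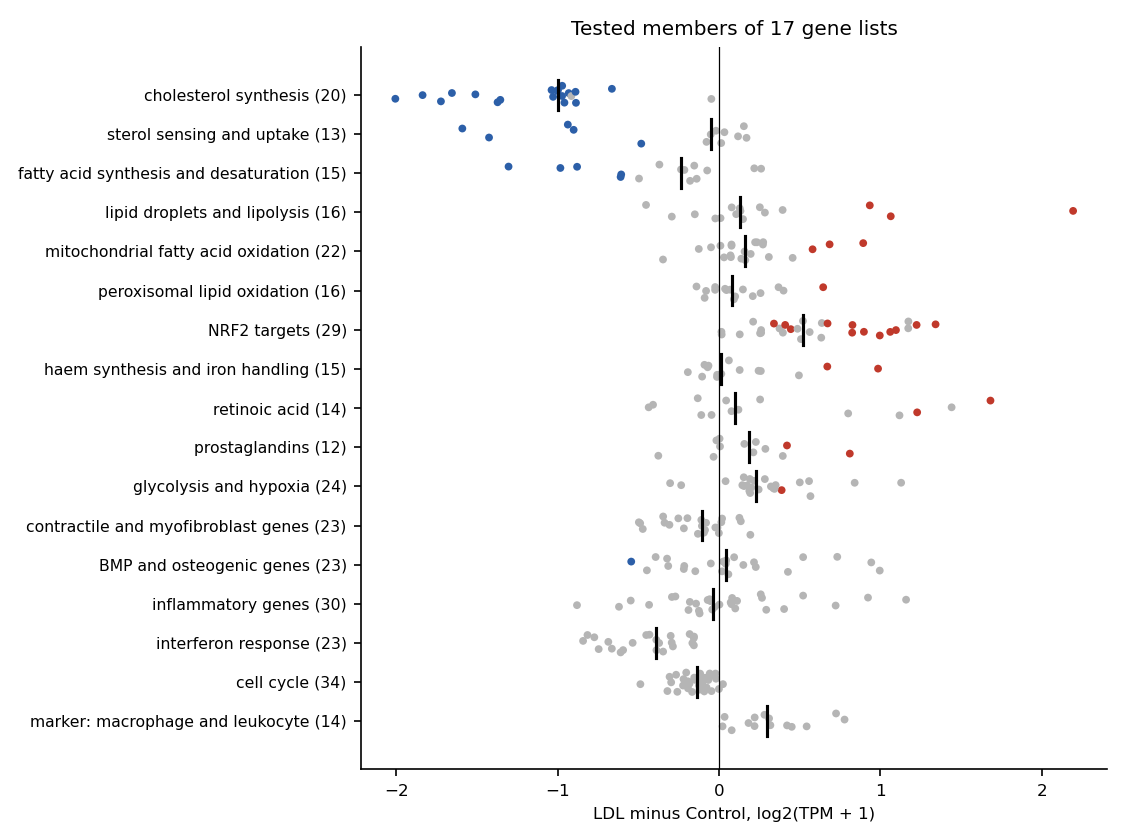
Difference between LDL and Control (log2 scale) of each tested gene in 17 gene lists, with called genes in blue (lower) or red (higher), other genes in grey and a black bar at each list median. Cholesterol synthesis sits around -1.0 and the NRF2 targets around 0.52, while most other lists centre near 0.

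Tgm2 and Rarb of the retinoic acid list were among the larger rises. Tgm2, a transglutaminase that crosslinks matrix and is a known retinoic acid target, was at 16.3, 12.2 and 8.88 TPM in Control and at 38.2, 43.0 and 42.4 TPM in LDL. The LDL libraries lay far above every Control library (difference 1.68, SE 0.18, limma adjusted p = 0.00953 with the block and 0.019 without). Rarb, a retinoic acid receptor that is itself induced by retinoic acid, was at 3.75, 5.71 and 4.53 TPM in Control and at 8.76, 13.0 and 15.6 TPM in LDL (difference 1.23, limma adjusted p = 0.0193 with the block and 0.0468 without). They were the 2 of 14 tested genes of the retinoic acid list that rose, against 0.437% of all genes. The list, with Tgm2 as its only target gene, was drawn up with earlier results of these data known. Its share is therefore no separate support. Dhrs3, a retinaldehyde reductase, had a difference of 1.12 and was called only without the block (limma adjusted p = 0.0511 with it and 0.0401 without). The largest adjusted p without 1 library was 0.0926 for Tgm2, without LDL 2, and 0.13 for Rarb, without Control 1.

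Ptgs2, the inducible cyclooxygenase, was at 56.0, 51.5 and 48.4 TPM in Control and at 95.3, 98.9 and 81.9 TPM in LDL. It was called in every fit without 1 library (difference 0.81, SE 0.06, limma adjusted p = 0.00164). Ptgs1, the constitutive cyclooxygenase, was higher in each pair although the groups overlapped, at 88.8, 140.0 and 111 TPM in Control and 118, 176 and 160.4 TPM in LDL (difference 0.42, limma adjusted p = 0.0279 with the block and 0.798 without). Of 12 tested prostaglandin genes these 2 rose, against 0.437% of all genes, and none fell.

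Other genes with large rises belong to no common pathway among the lists. Eef1a2, a tissue-restricted translation elongation factor, was at 3.31, 5.90 and 4.44 TPM in Control and at 8.82, 14.7 and 18.3 TPM in LDL (difference 1.40, limma adjusted p = 0.00948). Mbd1, a methyl-CpG-binding repressor, was at 29.0, 30.4 and 28.0 TPM in Control and at 57.2, 73.8 and 100.2 TPM in LDL. It was the 1 called gene of 15 in its list, against 0.437% of all genes called higher. Its LDL libraries were more spread out than its Control libraries (difference 1.34, SE 0.15, limma adjusted p = 0.0116, and 0.0992 without LDL 2). Stbd1 tethers glycogen to membranes. It was at 29.3, 27.6 and 27.7 TPM in Control and at 43.7, 46.5 and 50.6 TPM in LDL. It was the 1 called gene of 18 glycogen genes, against 0.437% of all genes (difference 0.71, limma adjusted p = 0.00537). Esd, an esterase, was abundant, at 963, 1154 and 1325 TPM in Control and 1731, 2066 and 2486 TPM in LDL (difference 0.86, limma adjusted p = 0.00944). Further rises were Mmd (0.98), Enpp3 (0.96) and Etfbkmt (0.84), a methyltransferase of the electron transfer flavoprotein (limma adjusted p = 0.0168, 0.0334 and 0.0308). Without the block Eef1a2, Esd, Mmd and Enpp3 were not called (limma adjusted p = 0.097, 0.0707, 0.11 and 0.304), while Mbd1, Stbd1 and Etfbkmt were. Enpp3 was low, at 3.21, 1.83 and 2.33 TPM in Control, and was called in only 1 of the 9 fits without 1 library. Of the 59 genes called higher, 32 were on a list and 27 were on none.

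Lists of valve cell programmes held at most 1 called gene each. Of 23 tested BMP and osteogenic genes 1 fell, against 0.415% of all genes, and none rose. An unadjusted p under 0.05 was found for 11 of them (limma), against 13.1% of all genes. Bmp4, a bone morphogenetic ligand, was at 118, 136 and 163 TPM in Control and at 84.3, 103 and 95.8 TPM in LDL (difference -0.54, limma adjusted p = 0.0341 with the block and 0.258 without). Runx2, the master factor of bone formation, was at 3.36, 3.38 and 3.01 TPM in Control and at 3.24, 3.12 and 3.78 TPM in LDL, a difference of 0.04 (95% interval -0.27 to 0.36). The 4 tested osteogenic genes summed to 991, 801 and 889 TPM in Control and to 1291, 1484 and 2282 TPM in LDL. The sums did not overlap, and most of each sum was Spp1, osteopontin, named after its values were seen, at 888, 651 and 792 TPM in Control and 1188, 1300.0 and 2110.5 TPM in LDL (difference 0.94, limma adjusted p = 0.249, not called). Adamts5, an aggrecan-cutting protease, was the 1 called gene of 14 matrix proteases and was lower, against 0.415% of all genes. It was at 48.0, 66.0 and 87.8 TPM in Control and 31.4, 51.3 and 54.8 TPM in LDL. The difference was -0.54 (limma adjusted p = 0.0195 with the block and 0.9 without). The Adamts5 groups overlapped, and the fall appears within the numbered pairs. Prrx1, a mesenchymal homeobox factor among the valve fibroblast markers, rose by 0.34 (limma adjusted p = 0.0495). Among the smaller falls were Fgfr2, a fibroblast growth factor receptor (-0.48), Acvrl1, a receptor of the BMP family (-0.54), and Fst, an activin antagonist (-0.55), all 3 named after their values were seen and none called without the block.

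No gene of the contractile and myofibroblast list was called out of 23 tested, with 10 at an unadjusted p under 0.05 (limma; 13.1% of all genes). Acta2, smooth muscle actin and the usual marker of activated interstitial cells, was at 725, 928 and 842 TPM in Control and at 605, 642 and 519 TPM in LDL. The groups did not overlap, but the difference of -0.50 had a limma adjusted p of 0.0697. Tagln and Myl9, also of the contractile apparatus, were at -0.34 and -0.49 (limma adjusted p = 0.0648 and 0.054). No gene was called among 39 matrix genes, 19 of TGF-beta signalling or 23 of Notch and Wnt (limma), where 15, 6 and 4 had an unadjusted p under 0.05, against 13.1% of all genes.

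No member of the inflammatory and stress lists was called. Called genes outside these lists, named after their values were seen, included Tnfrsf1b (0.43), Pycard (-0.43), Gadd45g (-0.42) and Samhd1 (-0.32). Their limma adjusted p ran from 0.0195 to 0.0427, and none was called without the block. Among 30 inflammatory genes 12 had an unadjusted p under 0.05 (limma; 13.1% of all genes). The chemokine Ccl2 was at 510.1, 1159.9 and 502 TPM in Control and at 431, 675 and 326 TPM in LDL, lower in each pair, with a difference of -0.55 (limma adjusted p = 0.0586). Il6 was at 47.1, 75.7 and 16.9 TPM in Control and at 67.8, 98.7 and 42.2 TPM in LDL, higher in each pair, with a difference of 0.72 (limma adjusted p = 0.329). For both cytokines the spread between numbers exceeded the difference between treatments. All 23 interferon response genes had a lower mean with LDL (median -0.39, 5 at an unadjusted p under 0.05), against 50.5% of all genes, and none was called. Of 34 cell cycle genes 33 had a lower mean (median -0.13, 9 at an unadjusted p under 0.05). No call was made among 19 p53 targets (5 at an unadjusted p under 0.05), 17 genes of the integrated stress response (2), 17 endoplasmic reticulum chaperones (3), 27 lysosome and autophagy genes (7) or 19 nuclear respiratory chain genes (0). Glycolysis and hypoxia genes had a higher mean in 22 of 24 cases (median 0.23), against 49.4% of all genes. The 1 call among the 24 was Gpi1, the glucose phosphate isomerase, against 0.437% of all genes called higher. Its difference was 0.39 (limma adjusted p = 0.035 with the block and 0.545 without). The Gpi1 groups overlapped.

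Libraries of the same number deviated together from their group means, with correlations of 0.172 to 0.497 across genes in 9 pairs of libraries. In the 18 pairs of different number the correlations ran from -0.309 to 0.13. Deviations within a group cancel out, so positive values at the same number force negative values among different numbers. The range at different numbers is therefore no independent comparison. All 59 higher genes were higher, and all 56 lower genes lower, in all 3 pairs, against 17.9% and 17.5% of all genes. The blocked fit favours genes whose pairs agree, so this describes the calls and is no separate support for them. Among the higher genes the median pair difference was 0.61, 0.71 and 0.82 on the log2 scale in pairs 1, 2 and 3. Among the lower genes it was -0.81, -0.56 and -0.69. Pair 1 thus held the largest falls and pair 3 the largest rises. Of the 115 calls, 19 were kept without any 1 of the 9 libraries and 8 of these also without any 1 number. Those kept without any 1 library included all of Pdk4, Ptgs2, Ech1, Cpt1a, Alas1 and Acaa2 among the rises, and Idi1, Fdps, Msmo1, Cyp51, Sqle, Hmgcs1, Insig1, Srebf2, Fdft1, Sc5d and Scd2 among the falls. The calls of the other genes named here were lost without at least 1 library, and the omission that raised their adjusted p most was that of Control 1, LDL 2 or LDL 3. A further 42 genes had an adjusted p between 0.05 and 0.06, and 18 of the called genes lay between 0.04 and 0.05. Calls were more frequent among abundant genes, from 0.118% of genes with a mean between 1.0 and 5.97 TPM to 1.72% of those above 49.58 TPM.

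**Figure D4:**
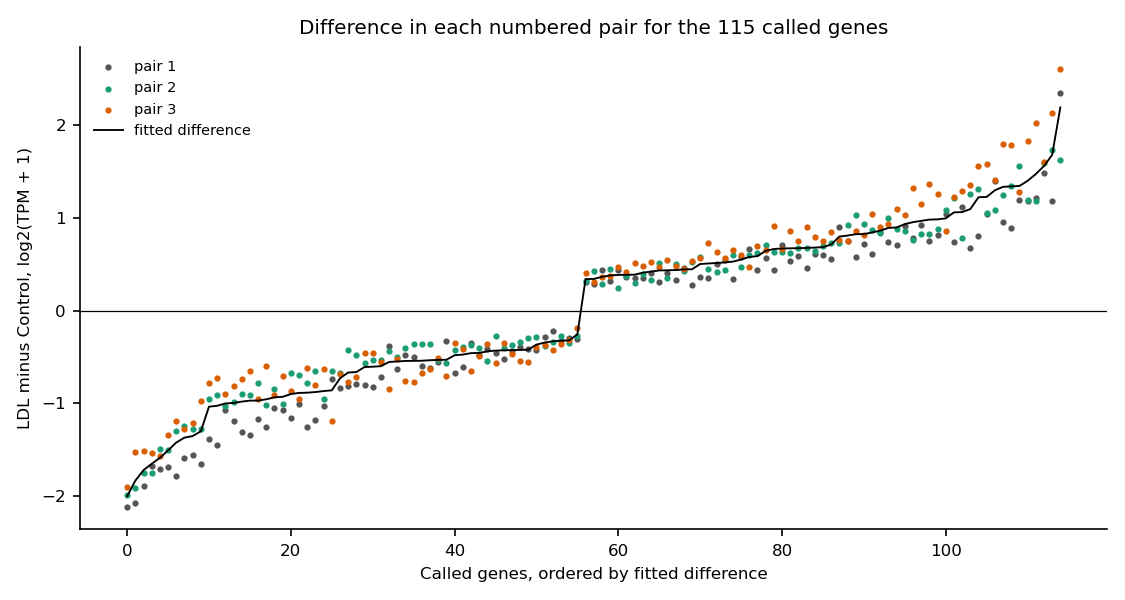
Difference between LDL and Control (log2 scale) in each of the 3 numbered pairs, with the fitted value, for the 115 called genes in order of the fitted value. The 3 pair values keep the sign of the fitted value for every gene shown, an agreement that the blocked fit favours. Their medians are 0.61, 0.71 and 0.82 among the genes called higher.

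**Figure D5:**
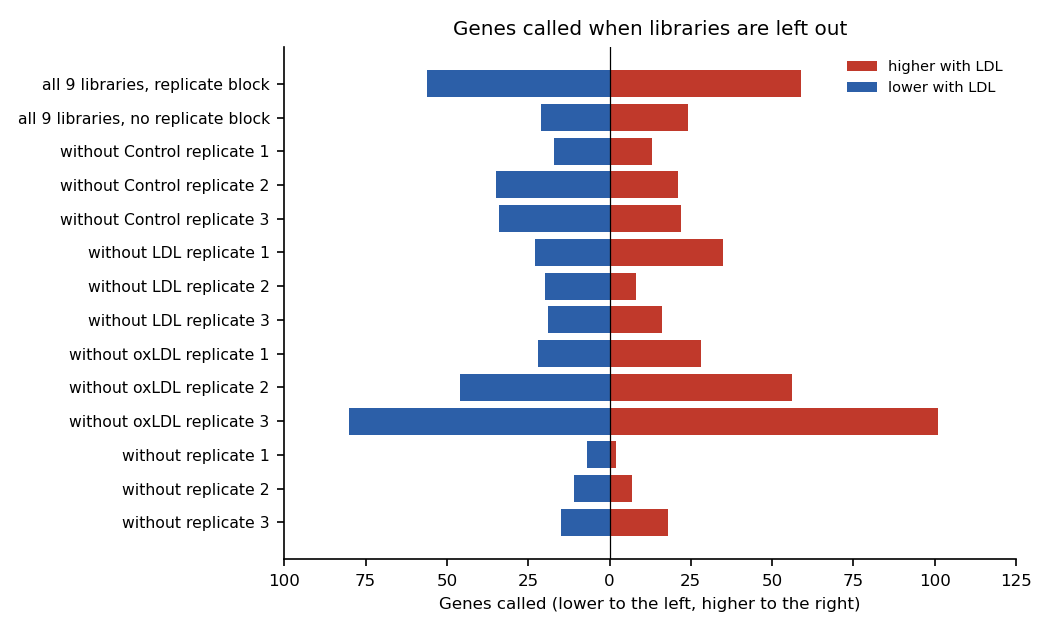
Number of genes called higher and lower in the fit with all 9 libraries and in fits that leave out 1 library or all 3 libraries of a number. Higher calls run from 2 to 101 and lower calls from 7 to 80, with 59 and 56 in the full fit.

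The levels with oxidised LDL were set beside those with native LDL. The contrast of oxLDL with LDL uses the same LDL libraries, so its values stand beside those above and are not independent of them. It called 35 genes (0.259%). For Fdps, Srebf2 and Hmgcs1 the oxLDL level lay between the others within each number. This did not hold for Srebf1, at 67.39 TPM in oxLDL 3 against 67.04 TPM in Control 3 and 52.56 TPM in LDL 3. Fdps was at 109, 71.2 and 67.3 TPM in oxLDL libraries 1, 2 and 3, above its LDL level (limma adjusted p = 0.0271), and Srebf2 at 41.4, 35.6 and 34.5 TPM (limma adjusted p = 0.0184). Hmgcs1, at 33.5, 28.9 and 27.3 TPM in oxLDL, did not pass that test (0.103).

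Fuel genes differed among themselves in their oxLDL level. Angptl4 was at 100.4, 116 and 99.0 TPM in oxLDL, above every Control library and below every LDL library, and did not pass the test against LDL (limma adjusted p = 0.192). Cpt1a was at 68.4, 67.0 and 76.4 TPM and Ucp2 at 22.4, 14.9 and 27.4 TPM, also without passing it (0.0674 and 0.0769). Pdk4 was at 12.2, 9.65 and 9.31 TPM in oxLDL (limma adjusted p against LDL = 0.000723). Tgm2 was at 14.2, 9.37 and 10.6 TPM (0.0184), Rarb at 3.95, 4.08 and 3.87 TPM (0.0281) and Mbd1 at 27.8, 28.0 and 30.0 TPM (0.0266). Stbd1 was at 24.2, 23.6 and 26.7 TPM, lower than in LDL in each number (0.00651), and Plin2 at 104, 78.1 and 94.7 TPM (0.0291). Gng2, a G protein subunit chosen after its values were seen, was at 13.6, 14.6 and 15.0 TPM in Control, fell to 7.19, 8.79 and 8.96 TPM in LDL (limma adjusted p = 0.0061) and was at 15.0, 15.4 and 17.1 TPM in oxLDL (0.0101 against LDL). The redox and cyclooxygenase genes did not differ between the lipoproteins by this test. Txnrd1 was at 366, 420.2 and 403 TPM in oxLDL, Nqo1 at 478, 498 and 456 TPM, Alas1 at 162, 163 and 172 TPM and Ptgs2 at 105, 95.6 and 82.4 TPM (limma adjusted p against LDL from 0.946 to 1). A p above the threshold does not show that the levels are equal.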

How the data were processed

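RNA of 9 samples (3 Control, 3 LDL, 3 oxLDL; 50 ng total RNA each, amplified cDNA, paired reads of 100 bases) was sequenced, per the labels' protocols. The deposited values are TPM per gene, already scaled by the authors; STAR, RSEM 1.3.1 and the mm10 build are named in the submitters' processing notes, while no source used here gives the annotation or the STAR version. The kit does not mark strand, so overlapping and antisense genes cannot be told apart, and RSEM divides reads between near-identical copies. Gene positions and types were matched by symbol to GENCODE M21 (97.7% of tested genes), and promoters to RefSeq (GRCm38.p6) by symbol for 9673 of the 13495 tested genes.

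All 9 libraries entered the mean behind the level filter (1 TPM or more), and the genes kept were fitted in limma 3.58.1 (R 4.3.3) on log2(TPM + 1), which understates changes of low genes, with group and replicate number as terms (4 residual degrees of freedom), a mean-dependent prior, two-sided tests and Benjamini-Hochberg adjustment over all genes. The numbers come from the sample titles; the labels do not say that a number marks a shared culture or day. Same-numbered libraries deviated together (correlations of 0.172 to 0.497), which is why the block was kept. The script was tested on simulated data. TPM hold no depth, so no count test was run. Exact permutation of 3 against 3 libraries cannot give a p below 0.1.

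Named genes are the 25 largest called rises and falls, called members of the 44 gene lists, and a fixed set (Abca1, Cd36, Pparg, Acta2, Runx2, Il6, Ccl2, Olr1, Srebf1, Srebf2, Nfe2l2), with up to 2 members of lists without a call. Clone-named models were counted only. Members and lists were chosen with earlier results of these data known. The share of a list that was called is therefore a description and no separate support. A few genes selected this way are not reported. Alternatives covered the block, libraries, pseudocount, filter, scaling and prior.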

Additional observations from a re-analysis of the deposited data

Results flagged for a closer look

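A signal also appeared outside the comparison of LDL with Control. Against the same Control libraries, 17 genes were called with oxLDL (0.126% of those tested; limma with the replicate block, adjusted p under 0.05), 8 higher and 9 lower. Of the 20 cholesterol synthesis genes 7 were among the lower ones, and of the 29 NRF2 targets 3 were among the higher ones. The Control libraries are shared with the comparison of LDL, so these counts are not independent of it. With 3 libraries in each group, no group was large enough to be searched for a library far from the others.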

How the results depend on the processing

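No result reversed. Without the replicate block, the pairing by number being ignored, 24 genes were higher and 21 lower. With the 6 Control and LDL libraries alone, 45 were higher and 30 lower with the block, and 7 and 2 without it. With no filter on low values 16 were higher and 24 lower, without a mean-dependent prior 35 were higher, and with protein-coding genes alone 99 were higher. The cause was not tested. Leaving out 1 library or 1 number gave from 2 to 101 higher and from 7 to 80 lower genes. Other pseudocounts, scalings, filters and the robust prior stayed within 1.5 times of the main counts, and no setting moved the median of all genes past -0.0255 or 0.0152. TPM keep no depth, so counting error cannot be separated from the spread between libraries, and genes with a low level carry the least certain values.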
